A study of Saccharomyces cerevisiae BY4741 with 25 samples.

Results

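Open reading frames of Ty retrotransposons of budding yeast, 8 in all, were followed through 9 whole-genome sequencing libraries. They were YBL005W-A, YBL005W-B, YBL100W-A, YBL100W-B, YDR210C-D, YLR410W-B, YMR045C and YMR046C, 8 of the 777 genes counted for the whole series. They were chosen by the measured share of reads, because each held a call that was nearly fixed in a mutant pool and, by exact match, absent from the parental list. Those near-fixed calls are therefore given as a description and carry no test. A variant counted as theirs when the authors' annotation gave a member as its region or as the locus of a predicted effect, which held for 256 of 4459 calls, at 40 positions.

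Ty elements are the retrotransposons of yeast, which copy themselves through an RNA intermediate inside virus-like particles made of their own Gag protein. The Gag reading frame opens each element, and the longer Gag-Pol protein is made when ribosomes slip forward by 1 base near the end of Gag. Pol holds the protease, integrase, reverse transcriptase and RNase H activities. Many copies of the Ty1 and Ty2 families, close to each other in sequence, lie scattered over the genome, so a short read from one copy may also match another. YBL100W and YLR410W are Ty2 elements, and YBL005W, YDR210C and YMR045C with YMR046C are Ty1 elements. YBL005W-A, YBL100W-A and YMR046C are Gag frames, and YBL005W-B, YBL100W-B, YDR210C-D, YLR410W-B and YMR045C are Gag-Pol frames. A call in Gag is listed for both frames of an element, so the 8 reading frames stand for 5 elements and are not independent of each other.

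The libraries came from stationary-phase cells of the BY4741 background grown in YPD, each a mixture of MATa and MATalpha cells. One library held both parental strains, YTT66 and YTT67, and 8 each held 1 mutant, RRC1 to RRC8, as clones from spores of backcrossed strains, grown apart and harvested together. By their titles RRC1, RRC2, RRC3 and RRC5 are the mutants rrn9, rrn10, rrn5 and uaf30, while RRC4, RRC6, RRC7 and RRC8 carry no gene name. Strain names derive RRC1 (YTT67_alpha25) and RRC4 (YTT67_alpha5) from YTT67, and RRC2 (YTT66_a17), RRC3 (YTT66_a19), RRC5 (YTT66_a40), RRC6 (YTT66_a296A), RRC7 (YTT66_a33) and RRC8 (YTT66_a44) from YTT66. The free-text note of RRC4 names the parental strains, against its title, and it was kept as a mutant pool. The number of clones in a pool is not given in the sources used here. Each mutant was 1 library, so a difference between libraries has no replicate check.

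The Ty reading frames took a like part of every list, 25 of the 447 parental calls and 27 to 32 calls of each mutant list. That was 4.68% (RRC4) to 6.44% (RRC5) of a list. By the deposited annotation, 128 of the 256 calls were missense, 118 were synonymous and 10 lay upstream of a frame. No call gave a stop codon or a frameshift inside a member. The positions recurred from library to library. Of the 40 positions, 22 (55.0%) were called in all 9 lists, against 227 of 1703 positions (13.3%) over the whole lists, and 11 (27.5%) were called in 1 list only, against 70.2%. The share of reads with the alternate allele was at least 90% at 81.6% of the Ty calls and at 49.5% of all calls. Part of this contrast follows from the choice of members, which was made on calls with a high share.

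Shown for every position and library, the calls fall into rows that run through all libraries, broken rows and scattered single cells.

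**Figure D1:**
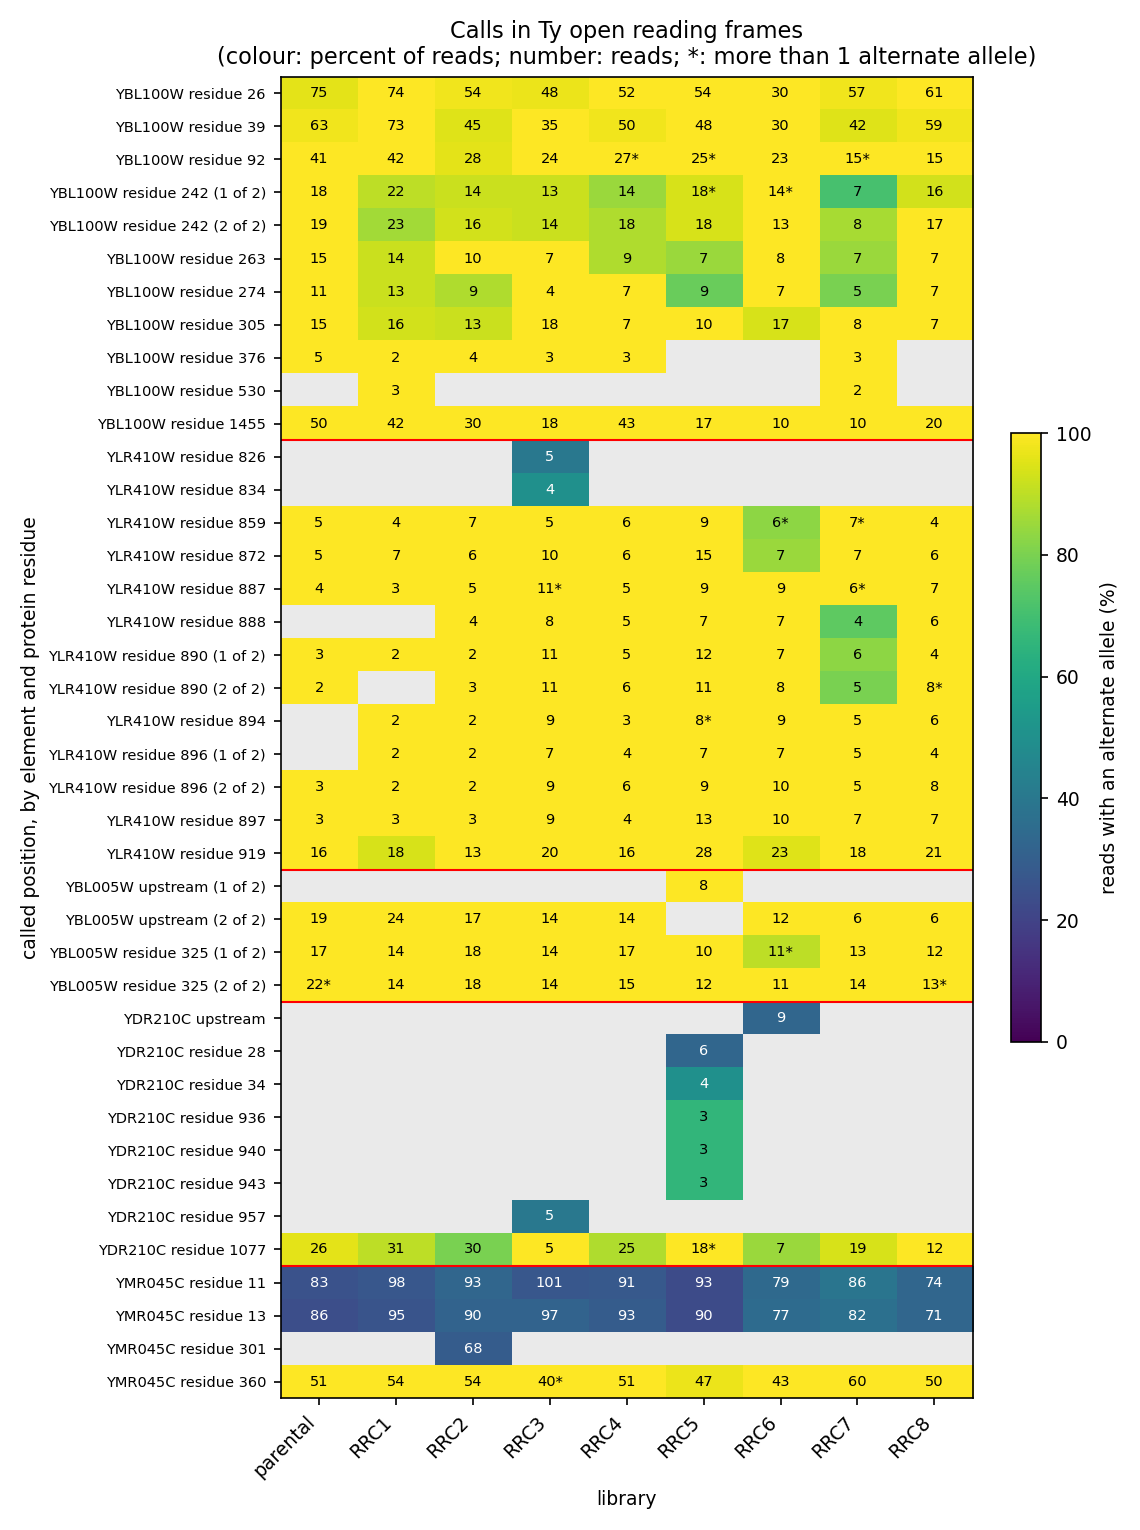
Each row is a called position, by element and protein residue, and each column a library. Colour gives the percent of reads with an alternate allele, the number gives the reads, an asterisk marks more than 1 alternate allele, and grey means that the list has no call. Of the 22 rows called in all 9 libraries, those at residues 11 and 13 of YMR045C run at 23% to 39% and the others at 71% to 100%, and the isolated calls of YLR410W and YDR210C rest on 3 to 9 reads.

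The parental list held 25 of the Ty positions, and 22 of these were called in every mutant list too. The codons below belong to the missense changes seen in all 9 libraries, and are printed because they recur in every library. They stand in the coding direction with the changed base in capitals. Their depth was unlike, with 2 to 12 reads at S890T and 3 to 11 at D887N, but 30 to 73 at N39S.
YBL100W-A and YBL100W-B N39S: aAt/aGt
YBL100W-A and YBL100W-B A242S: Gct/Tct
YBL100W-A and YBL100W-B D274N: Gac/Aac
YBL100W-A and YBL100W-B A305G: gCc/gGc
YBL100W-B E1455K: Gag/Aag
YLR410W-B D887N: Gac/Aac
YLR410W-B S890T: Tcc/Acc
YLR410W-B Q919K: Caa/Aaa
YBL005W-A and YBL005W-B P325R: cCg/cGg
YDR210C-D V1077A: gTt/gCt
YMR045C and YMR046C H360Y: Cat/Tat
YMR045C and YMR046C S13F: tCt/tTt

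YBL100W, a Ty2 element on chromosome 2, held 89 calls at 11 positions between 30012 and 34298 in the coordinates of the authors' files, whose build is not given in the sources used here. Of these positions, 9 lay in Gag and so in both frames, and 2 lay in the Pol part of YBL100W-B alone. The missense change N39S was covered by 63 parental reads, and by 73, 45, 35, 50, 48, 30, 42 and 59 in RRC1 to RRC8. The parental share was 98% and the mutant shares ran from 95% to 100%. The change was therefore in all or nearly all of the reads placed at this position in all 9 libraries. E1455K, in Pol, had 50 parental reads, and 42, 30, 18, 43, 17, 10, 10 and 20 in RRC1 to RRC8, at 100% in each.

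Depth in YBL100W was high at the start of the Gag frame and low at its far end. The synonymous call at residue 26 had 30 to 75 reads across the libraries and the one at residue 92 had 15 to 42. Reads at the missense change A242S numbered 7 to 22, and at D274N 4 to 13. Depth did not fall at every step, since A305G further along had 7 to 18 reads. At residue 376 the synonymous call was down to 2 to 5 reads and was listed in 6 libraries only. The synonymous call at residue 530 had 3 reads in RRC1 and 2 in RRC7 and was in no other list. The lists give no depth where nothing was called, so the other libraries have no value there. Shares below 90% also lay in this thin stretch. A242S stood at 71% of 7 reads in RRC7 and 85% of 14 reads in RRC4, with exact 95% intervals of 29.0% to 96.3% and 57.2% to 98.2%.

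**Figure D2:**
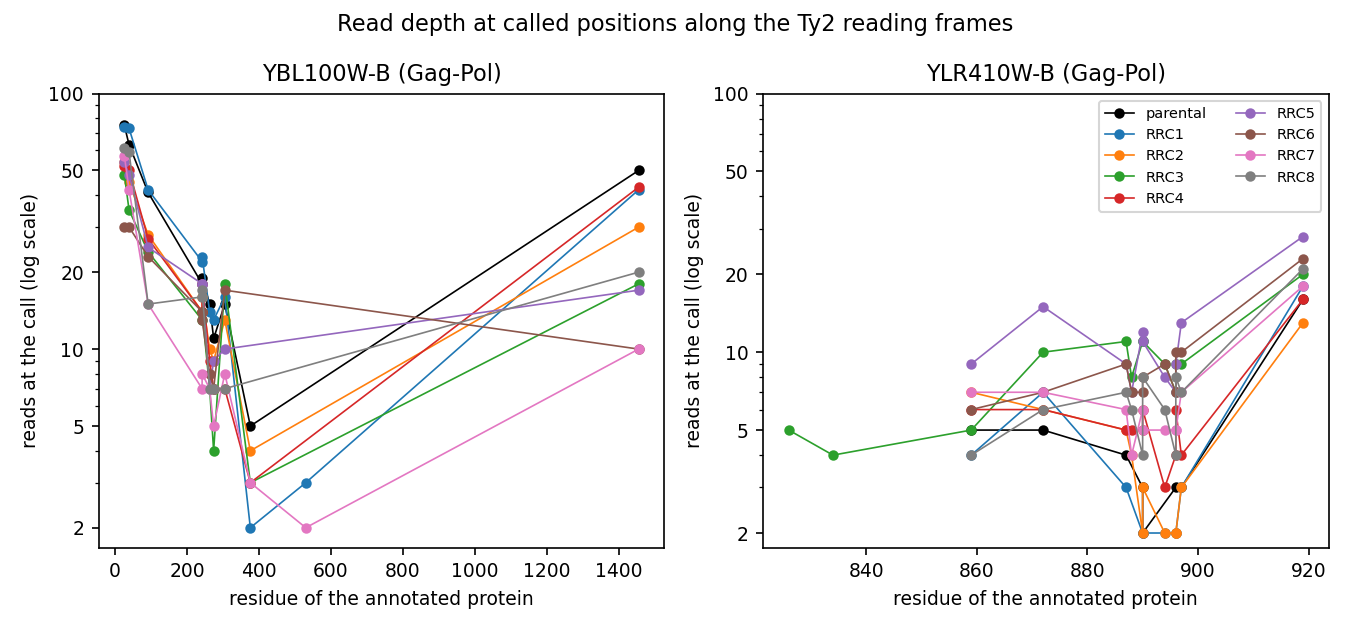
Reads at each called position (log scale) against the residue of the annotated Gag-Pol protein, for YBL100W-B on the left and YLR410W-B on the right, with 1 line per library. Depth in YBL100W-B fell from 30 to 75 reads at residue 26 to 2 to 5 reads at residue 376, and in YLR410W-B every library was deepest at residue 919, with 13 to 28 reads.

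YLR410W-B, the Gag-Pol frame of a Ty2 element on chromosome 12, had the most calls of the 8 frames, 96 at 13 positions, 7 of them missense and 6 synonymous. All lay within 280 bases, from 943959 to 944238. Only 19 of the 96 calls had 10 reads or more. In it, 8 positions were packed into 33 bases, from 944142 to 944174, and the median reads there were 3 for the parental pool, and 2, 2.5, 9, 5, 9, 8.5, 5 and 6.5 for RRC1 to RRC8. RRC3, RRC5 and RRC6 thus had the deepest coverage of the stretch, and the parental pool, RRC1 and RRC2 the thinnest. The missense changes N888K and N896D and the synonymous call at residue 894, at 3 of its positions, were missing from the parental list and present in 7, 8 and 8 mutant lists, respectively. N888K had 4, 8, 5, 7, 7, 4 and 6 reads in RRC2 to RRC8, at 75% in RRC7 and 100% in the others. Next to them the parental list has calls with 2 to 4 reads, all at 100%. Whether the parental pool lacked these alleles cannot be told at this depth. Q919K, outside the packed stretch, had 16 parental reads, and 18, 13, 20, 16, 28, 23, 18 and 21 in RRC1 to RRC8, at 94% to 100%.

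YBL005W, a Ty1 element on chromosome 2, held 27 calls at 4 positions, and both of its frames carry the same calls. P325R had 17 parental reads, and 14, 18, 14, 17, 10, 11, 13 and 12 in RRC1 to RRC8, at 90% in RRC6 and 100% in all others. A deletion of 2 bases (AGTGT to AGT, at 221288) lay 39 bases upstream of the frame in the parental list and in 7 mutant lists, with 6 to 24 reads at 100%. RRC5 lacked it and had a different deletion of 2 bases (TAG to T) listed 1 base before it, with 8 reads at 100%.

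In 4 codons of these elements the lists hold neighbouring base changes as separate calls. At residue 325 of YBL005W the 2 changes stood 1 base apart in all 9 libraries, both at 100% in 8 of them, and together turn CCG into CGC. At residue 242 of YBL100W they turn GCT into TCC (9 libraries, both at 100% in 2). YLR410W-B had such pairs at residue 890, TCC to ACG (8 libraries, both at 100% in 7), and at residue 896, AAT to GAC (8 libraries, both at 100% in 8). The lists annotate 1 call of each pair as synonymous and the other as missense. Read together on 1 copy, each pair gives the same residue as its missense call alone (R, S, T and D). Whether both changes sit on the same reads is not given in the lists.

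YDR210C-D, the Gag-Pol frame of a Ty1 element on chromosome 4, had 1 lasting call. V1077A had 26 parental reads, and 31, 30, 5, 25, 18, 7, 19 and 12 in RRC1 to RRC8. The shares were 96% for the parental pool, and 90%, 80%, 100%, 88%, 100%, 85%, 94% and 100% for the mutant pools in that order. The lowest share, in RRC2, was not separable from the parental value (two-sided Fisher's exact test over reads, adjusted p = 1.0). Its other 7 positions were each in 1 mutant list (RRC3, RRC5 or RRC6), with 3 to 9 reads at 33% to 66%.

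The residue numbers of the deposited annotation follow the frameshift. In YBL100W, all 9 Gag positions up to residue 376 count from the same first base, and both Pol positions, residues 530 and 1455, count from 1 base later. YDR210C shows the same step between its 2 positions at residues 28 and 34 and its 5 positions from residue 936 to 1077. YLR410W-B has no Gag call to compare with, so nothing is known of such a step there.

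YMR046C and YMR045C are the Gag and Gag-Pol frames of a Ty1 element on chromosome 13. They stood apart from the other members in median depth and in share. Their 28 calls, all in Gag, had 40 to 101 reads. H360Y had 51 parental reads, and 54, 54, 40, 51, 47, 43, 60 and 50 in RRC1 to RRC8, at 97% in RRC5 and 100% in the other 8 libraries. A pair of positions near the start of the frame, 5 bases apart, instead carried a minority allele. The missense change S13F stood at 24% of 86 parental reads (exact 95% interval 15.8% to 34.9%), and at 26%, 32%, 32%, 29%, 23%, 35%, 37% and 33% in RRC1 to RRC8. The synonymous call at residue 11 stood at 25% of 83 reads (16.4% to 36.0%) and at 27%, 33%, 27%, 28%, 23%, 34%, 39% and 33%. Within each library the shares at both positions were within 5 percentage points of each other. At each position 7 of 8 mutant pools were above the parental share and RRC5 was below it, but the intervals of all 9 libraries overlapped. Positions 5 bases apart may be covered by the same reads, so they do not count as separate observations. All 8 comparisons also share the same parental library. The clearest difference, residue 11 in RRC7 against the parental pool (39% of 86 reads against 25% of 83), gave an unadjusted p of 0.0512 and an adjusted p of 1.0 (two-sided Fisher's exact test). Reads at these positions ranged from 71 to 101, against 40 to 60 at residue 360 of the same frame.

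**Figure D3:**
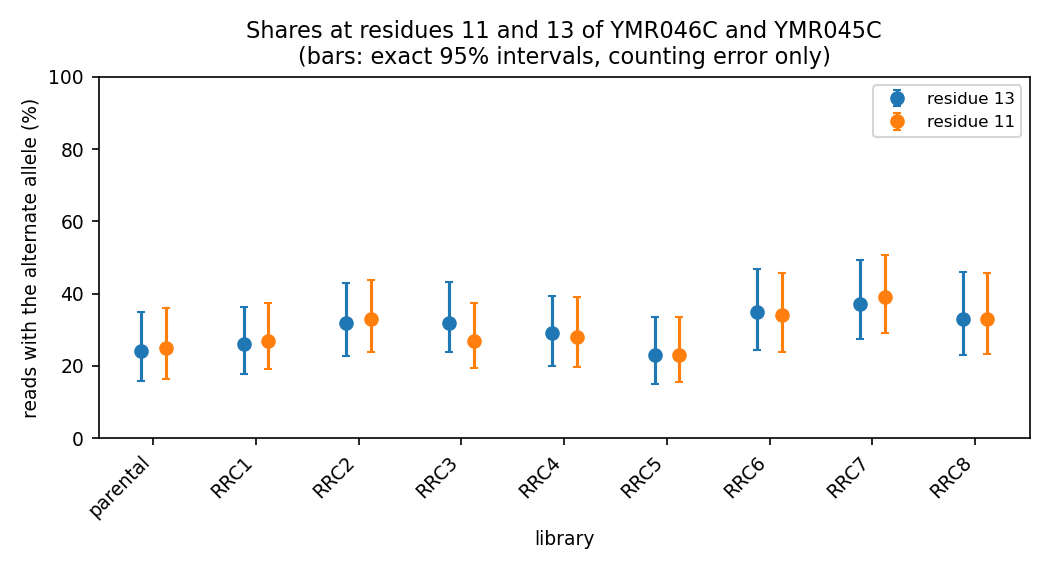
Percent of reads with the alternate allele at residues 11 and 13 of YMR046C and YMR045C, by library, with exact 95% intervals from read counts. Shares ran from 23% in RRC5 to 39% in RRC7, and the intervals of all libraries overlapped.

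The remaining YMR046C position was in 1 list alone. The synonymous call at residue 301 in RRC2 stood at 29% of 68 reads (exact 95% interval 19.0% to 41.7%) with a score of 26.0, against scores of 93 to 222 at the other calls of this element. It was also the 1 Ty call of at least 10 reads at a position with no parental call. A further 14 positions were absent from the parental list, and none of them had more than 9 reads in any library.

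The near-fixed calls that chose the members come from an exact match of alleles. Among Ty calls with at least 10 reads, 17 were absent from the parental list by position and alleles, and 16 were near-fixed, which means a share of at least 90% and an adjusted exact binomial p under 0.05 against 50%. Over all 8 mutant lists, 200 of 1350 such calls (14.8%) were near-fixed. The rule chose on this contrast, so nothing is read from the difference. All 16 had a parental call at the same position that shared an allele with them. Over all lists, 152 of the 200 near-fixed calls had a parental call at their position. In 9 of the 16 Ty calls the pool listed an allele more than the parental pool did. In the other 7, all at the synonymous YBL005W position 222304, the parental list had an extra allele (C and A) where RRC1 to RRC7 had C alone. RRC8 had both alleles, as the parental pool did, and so was not counted. By position alone, 1 pool-specific Ty call was left, residue 301 of YMR046C in RRC2, and no near-fixed call. Over all lists, 1175 of the 1350 pool-specific calls were left by position.

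The 9 calls with an extra allele lay at 6 positions, with 11 to 40 reads. At residue 92 of YBL100W, RRC4, RRC5 and RRC7 listed C and A with 27, 25 and 15 reads at 100%, where the parental pool listed C with 41 reads at 100%. The other 6 calls had a missense extra allele. They were A242P in YBL100W in RRC5 (18 reads) and RRC6 (14 reads), D887H in YLR410W-B in RRC3 (11 reads), P325Q in YBL005W in RRC6 (11 reads), V1077D in YDR210C-D in RRC5 (18 reads) and H360D in YMR046C in RRC3 (40 reads). The printed percent covers all alternate alleles together, so how many of those reads carried the extra one is not known. The P325Q call, 10 of 11 reads or 90% with a score of 36.3, lay just inside the limits. The calls at residue 894 of YLR410W-B in RRC5 and residue 890 in RRC8, both with 8 reads at 100%, lay just outside them for depth.

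More than 1 alternate allele was seen at 10 of 40 Ty positions (25.0%) and at 83 of 1703 positions overall (4.87%). In the mutant pools such Ty calls numbered 0, 0, 2, 1, 4, 3, 3 and 2 for RRC1 to RRC8, and the parental list had 1. Over the whole lists they numbered 16, 19, 17, 19, 22, 18, 20 and 19 for RRC1 to RRC8, and 25 for the parental pool. The members were chosen through such calls, so the Ty counts are a description of the choice.

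Calls with the same alleles in a mutant list and in the parental list can be compared in share. They are not themselves the calls that chose the members. Some of them lie at the positions of the choosing calls, in other pools, so the comparison is not independent of the choice. At 17 Ty positions 98 such comparisons, 9 to 16 per pool, had at least 10 reads in both libraries. None passed an adjusted p of 0.05 in the two-sided Fisher's exact test, and 0 had an unadjusted p under 0.05. Over all 1860 comparisons, 13 passed (0.699%) and 46 had an unadjusted p under 0.05. At most Ty positions both shares were near 100%, with depths of 10 to 75 reads outside YMR046C, so small shifts in share were not detectable.

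The median reads at Ty calls were 17 for the parental pool, and 14, 13, 11, 11.5, 10.5, 10, 7 and 8 for RRC1 to RRC8, where the medians of the whole lists were 37 and 47, 51, 25.5, 51, 39, 19, 40 and 39. The Ty median was below that of the list in every library, although single positions such as residue 26 of YBL100W had 30 to 75 reads. The ratio ran from 0.175 in RRC7 to 0.526 in RRC6, with a median of 0.269. Over the libraries, YLR410W had a median ratio of 0.15 (0.0588 to 0.421), YBL005W 0.325 (0.256 to 0.579), YBL100W 0.462 (0.2 to 0.737) and YDR210C 0.475 (0.0897 to 0.703). The last range includes the thin single-list calls of RRC3, RRC5 and RRC6. YMR045C had the highest median ratio, at 2.05 (1.55 to 4.05), above 1 in all 9 libraries. It rests on 3 calls per library, or 4 in RRC2, and residues 11 and 13 lie 5 bases apart. Residue 360 alone ran from 1.0 times the list median in RRC4 to 2.26 in RRC6. Single positions elsewhere were as deep, with residue 26 of YBL100W at 1.02 in RRC4 to 2.03 in the parental pool. Copy number in the cells and the placement of reads among near-identical copies cannot be told apart from these depths.

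**Figure D4:**
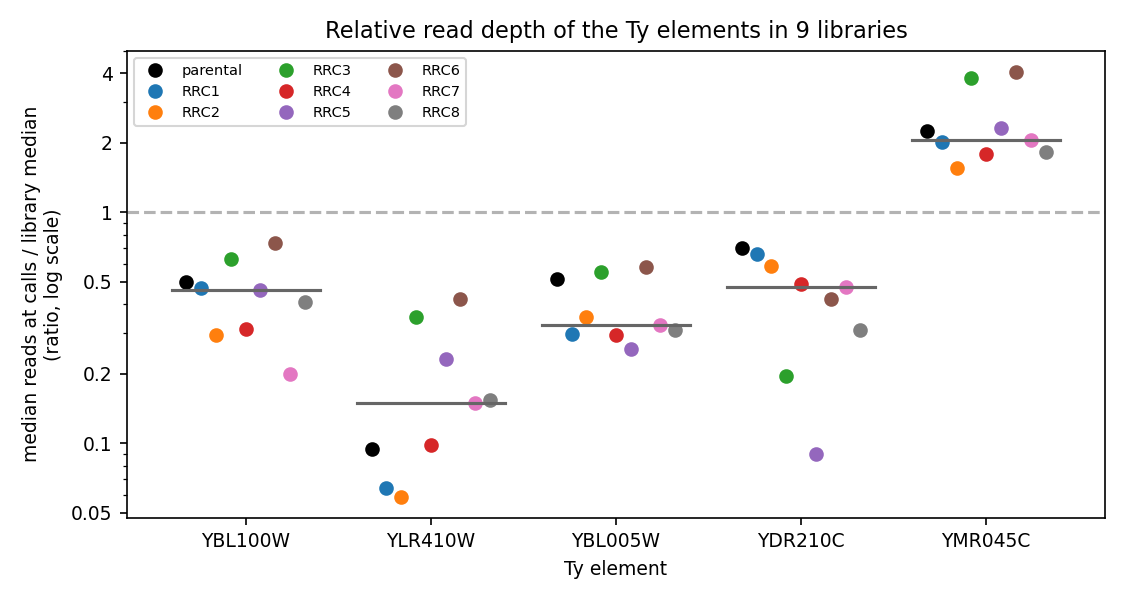
Median reads at the calls of each Ty element divided by the median reads over all calls of the same library (log scale), with 1 point per library and a line at the median of the libraries. The other 4 elements sat below 1 in every library, while YMR045C sat between 1.55 and 4.05.

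The median score was 87.1 for Ty calls and 145 for all calls, and 55.1% of Ty calls had at least 10 reads, against 80.9% of all calls. The share of Ty calls under 10 reads went from 32.0% for the parental pool to 62.1% in RRC7. The part of read depth in which positions were called in which library was not tested.

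The base changes of Ty positions were sorted by whether the parental list had the position. Among single-base positions in the parental list, 8 of 24 Ty positions (33.3%) and 100 of 345 overall (29.0%) were G:C to A:T. Among those absent from it, 0 of 14 Ty positions and 688 of 1153 overall (59.7%) were of that kind. The 14 Ty positions were 6 A:T to G:C changes and 8 transversions. They lie in 4 elements and several share a library and neighbouring reads, so no test was made. Only 1 of the 14 reached 10 reads in any library, while 80.9% of all calls had at least 10 reads. The 2 sets were not matched for depth. For N888K, N896D and the call at residue 894 of YLR410W-B, whether the parental pool lacked the allele cannot be told.

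The other Ty reading frames of the genome differed from the members as a set, though not at every locus. Of 82 listed frames, 52 had a call, 170 calls at 106 positions. Their median depth was 7 reads, their median share was 50% and 27.6% of their calls were at 90% or more. Single loci were deeper. YOL103W-A and YJL113W each had 18 calls over 9 lists, with medians of 65 and 53.5 reads, and YNL284C-B had 24 calls over 7 lists, with 37.5. YBR012W-B and YAR009C, also with calls in 9 lists, had medians of 6 and 9 reads. Of their positions, 5 of 106 (4.72%) were called in all 9 lists, against 13.3% of all positions. None had more than 1 alternate allele, against 4.87%. Of their pool-specific calls, 0 of 18 were near-fixed, against 14.8% over all lists. The members were picked for near-fixed calls, so shares and alleles had to differ. All 16 choosing calls also lay at positions with a parental call, so recurrence over the lists is not independent of the choice. The depth ratio of the other frames had a median of 0.263 over the libraries and ranged from 0.125 to 1.29, against 0.175 to 0.526 for the members. Repeat-rich cell wall genes, another source of similar sequences, had more than 1 allele at 20 of 198 positions (10.1%) and 44 positions (22.2%) in all 9 lists, with a median depth ratio of 0.385.

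Host genes known to act on Ty1 (39 listed) had 9 calls in 8 genes. All 9 were pool-specific and 0 were near-fixed. Over all lists, 14.8% of pool-specific calls were near-fixed, but 152 of those 200 calls had a parental call at their position. No host call had one, so the shares are not alike and nothing is read from the difference. Of the 9 host calls, 4 changed a protein, each in 1 pool. RPC53, a subunit of RNA polymerase III, had G414D in RRC3 at 36% of 83 reads (exact 95% interval 25.9% to 47.4%). GCR1, a transcriptional activator of glycolytic genes that also acts on Ty expression, had G323E in RRC3 at 41% of 60 reads (29.1% to 55.1%). RPC40, a subunit shared by RNA polymerases I and III, had A286T in RRC4 at 38% of 67 reads (27.1% to 51.5%), and RAD52, the recombination mediator, had P432L in RRC8 at 58% of 53 reads (44.1% to 71.9%). No host gene had a call in the parental list with the same alleles.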

How the data were processed

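The authors deposited a full list of called variants per library and shortened lists for the 8 mutants. Per the file headers of the shortened lists, each call has a score (named MapQ), a count of reads, and a percent, the part of those reads that carry an alternate allele. For some samples the submitters' processing notes name SAMtools 0.1.19, Bowtie 1.0.0 and MACS2 without saying what each did. The caller, its settings and the build: not given in the sources used here. Gene names were matched to a RefSeq table of assembly R64, with no coordinates taken from it. The 16 chromatin immunoprecipitation samples were not analysed here.

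The percent is rounded down, so alternate reads were taken as the fewest that give it, which is exact up to 100 reads. Intervals are Clopper-Pearson at 95% and cover counting error only. A call was pool-specific with at least 10 reads and no parental call of the same position and alleles. P-values were adjusted by Benjamini-Hochberg within each pool over all calls, and Fisher's exact tests compare pairs of libraries, not conditions. Members and lists were chosen with earlier results of these data known. The rule for named items took all 8 members, positions with a near-fixed call or in at least 5 lists, and host genes with a protein-changing pool-specific call. The list of other Ty frames was written from known names after the data were seen, since the gene table holds no descriptions. Alternatives covered scores, depth, the match to the parental list, the shortened lists and the depth divisor. Python 3.11.15, NumPy 2.4.6, pandas 2.3.3, SciPy 1.17.1 and Matplotlib 3.10.9 were used, and the tests were tried on simulated data.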

Additional observations from a re-analysis of the deposited data

How the results depend on the processing

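Of 32 alternatives, 23 left a result within 1.5 times its value, or a depth ratio within 1 SD over the mutant pools, and 9 moved it. The 256 Ty calls became 141 with at least 10 reads, 70 with at least 20 reads and 34 with a score of at least 200. The 16 near-fixed calls became 0 when any parental call at the position, or within 5 bases of it, removed a call, which follows from the parental call present at each of them. They became 26 with no minimum depth, 3 with at least 20 reads and 3 with a score of at least 200. The 10 positions with more than 1 allele became 2 at a score of at least 200. No shared call differed from the parental pool under any of the 7 alternatives of that test. The depth ratio of 0.269 ranged from 0.183 to 0.362. Low depth limits YLR410W-B most, where 19 of 96 calls had at least 10 reads. No paired analysis was possible because each group is 1 library.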
